A study of Mus musculus with 6 samples.

Results

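The p53 and Rb tumor suppressor axis was followed here through 10 genes in primary mouse osteosarcomas: *Trp53*, *Mdm2*, *Mdm4*, *Cdkn1a*, *Cdkn2a*, *Cdkn2b*, *Rb1*, *Mybbp1a*, *Atm* and *Sesn2*. They were picked by symbol from the 39179 Ensembl genes of the count table as genes of an axis that is often altered in osteosarcoma. p53, encoded by *Trp53*, is a transcription factor that stops the cell cycle or starts apoptosis after DNA damage. The ubiquitin ligase MDM2 and its partner MDM4 hold it down, the kinase ATM activates it, and p19Arf releases it by binding MDM2. The retinoblastoma protein, encoded by *Rb1*, keeps E2F factors silent until cyclin-dependent kinases phosphorylate it, and p16Ink4a, p15Ink4b and p21 (*Cdkn1a*) inhibit those kinases. Osteosarcoma is a tumor of bone-forming cells in which both arms are known to be lost often.

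The study sequenced mRNA to ask which processes besides drug efflux depend on CD44, an adhesion and hyaluronan receptor implicated in chemoresistance. The 6 libraries were 3 from *Cd44*+/+ tumors (No244, No316 and No368) and 3 from *Cd44*-/- tumors (No203, No279 and No364), and values are given in this order throughout. All were labelled as osteosarcoma of mixed C57BL/6, 129/Sv and FVB strain, all carried the same mutant allele of a second tumor suppressor (*Nf2*Δ2/+), and the labels name no drug treatment. The age of the mice was not given in the sources used here, and the extraction text of the labels names cell lines where the methods of the study name tissue.

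None of the 10 genes passed the test between the genotypes over all genes, which does not show that they were alike. In the edgeR quasi-likelihood test with Benjamini-Hochberg adjustment, 0 of 17844 tested genes passed an adjusted p of 0.05 (0%), so 0 of 10 members passed as well, and all 10 had been expressed enough to be tested. An unadjusted p under 0.05 was reached by 4.26% of all tested genes and by 0 of 10 members. DESeq2 on the same 5 samples called 0 members at the adjusted threshold, where it called 0.611% of all genes, and gave 1 member, *Cdkn2a*, an unadjusted p under 0.05, where 8.89% of all genes had one (adjusted p = 0.497). On 6 separate libraries it again called 0 members (2.51% of all genes) and gave 3, *Cdkn2a*, *Cdkn2b* and *Mybbp1a*, an unadjusted p under 0.05 (14.1% of all genes). Among the members, *Cdkn2a* differed 99.4-fold between the highest and the lowest library and *Cdkn2b* 15.0-fold, whereas *Mybbp1a* differed 1.83-fold. This range was not computed over all genes, and in the lists below *Perp* differed 596-fold and *Trp63* 102-fold. *Mybbp1a* was the only member whose *Cd44*-/- values all lay above its *Cd44*+/+ values, with TMM scaling though not with library size alone. With TMM scaling, 18.8% of all tested genes had non-overlapping genotypes, and 9.58% were higher in *Cd44*-/-.

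Several features of the libraries touch these results. Total counts lay between 18076388 and 26954142, and 3 counts, taken as the detection floor, corresponded to between 0.0990 and 0.252 CPM (counts scaled to a common effective library size). For 87.2% of 16671 genes the counts of No316 and No368 agreed within 95% binomial sampling noise, against 15.7% to 24.1% of genes in the other pairs of libraries, so this pair entered every mean and the test as 1 sample (n = 2 against n = 3). Nothing in the labels says that the other libraries came from separate animals, and p-values measure only the spread between these samples, which reached a biological coefficient of variation of 0.804. Mitochondrial genes took 55.2% of the counts of No244 and 5.94% to 12.5% of the others. Summed over 4 skeletal muscle markers, No244 held 13918 CPM and the other libraries 10.4 to 448 CPM. Summed over 8 hepatocyte markers, No364 held 110466 CPM and the other libraries 39.0 to 141 CPM, and its sum over 7 osteoblast markers was 800.2 CPM against 12078 to 35902 CPM elsewhere. In No279 the osteoblast sum of 12078 CPM came mainly from *Col1a1* at 11990 CPM, while *Ibsp*, *Dmp1* and *Sp7* stood at 3.27, 0.363 and 3.96 CPM. Of the remaining osteoblast markers, *Bglap*, *Alpl* and *Runx2* stood at 4.79, 7.16 and 68.3 CPM in No279. For *Runx2* this was above No364 (5.76 CPM) and below every other library. *Cd44* itself was at 137.3, 243.6 and 240.3 CPM in *Cd44*+/+ libraries and at 19.2, 15.7 and 61.8 CPM in No203, No279 and No364, lower in every *Cd44*-/- library without overlap (log2 fold change -2.58, SE 0.76, edgeR adjusted p = 0.818). These counts cover the whole gene, and the exons that the null allele lacks are not given in the sources used here.

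The sequence just upstream of the transcription start was read from RefSeq (build GRCm38.p6) for 12 starts of 9 members, and *Rb1* had no entry in the table used. In each, 250 bases were searched on both strands for a p53 consensus site of 20 bases with at most 1 mismatch, for E2F sites of the form TTCCCGC, of the form TTGGCGC or of the form TTCGCGC, for the response element of the CD44 intracellular domain (CIRE, CCTGCG) and for the AP-1 element TGACTCA. The sequences of the genes with the widest spread between tumors and of the 2 best known p53 targets are shown here, 5′ to 3′ on the transcribed strand, with matches in capitals. *Cdkn1a* lies on the plus strand and its upstream start follows chr17:29090729-29090978. *Mdm2* lies on the minus strand and its window is chr10:117710759-117711008. *Cdkn2a*, on the minus strand, has an upstream start for p19Arf (chr4:89294620-89294869) and a downstream start for p16Ink4a (chr4:89282193-89282442), and the *Cdkn2b* window is chr4:89311033-89311282, also on the minus strand.
Cdkn1a, upstream start: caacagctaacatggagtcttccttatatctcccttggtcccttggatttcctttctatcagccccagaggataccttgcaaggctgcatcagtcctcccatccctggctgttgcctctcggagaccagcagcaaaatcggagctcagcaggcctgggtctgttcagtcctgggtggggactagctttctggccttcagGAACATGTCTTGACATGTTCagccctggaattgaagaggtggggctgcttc
Mdm2: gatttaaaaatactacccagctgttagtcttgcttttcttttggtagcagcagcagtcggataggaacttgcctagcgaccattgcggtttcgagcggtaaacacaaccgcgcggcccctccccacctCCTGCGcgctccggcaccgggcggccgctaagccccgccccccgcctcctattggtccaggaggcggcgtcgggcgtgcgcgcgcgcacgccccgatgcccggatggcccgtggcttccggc
Cdkn2a, p19Arf start: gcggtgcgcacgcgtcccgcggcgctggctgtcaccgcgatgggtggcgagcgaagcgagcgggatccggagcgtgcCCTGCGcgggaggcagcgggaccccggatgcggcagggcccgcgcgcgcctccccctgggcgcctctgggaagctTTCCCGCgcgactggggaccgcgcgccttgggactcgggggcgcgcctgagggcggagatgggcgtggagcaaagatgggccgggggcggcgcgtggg
Cdkn2a, p16Ink4a start: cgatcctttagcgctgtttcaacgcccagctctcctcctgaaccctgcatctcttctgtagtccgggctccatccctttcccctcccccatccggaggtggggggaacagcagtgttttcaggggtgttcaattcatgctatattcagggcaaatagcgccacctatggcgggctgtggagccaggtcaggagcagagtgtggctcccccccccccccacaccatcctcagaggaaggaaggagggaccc
Cdkn2b: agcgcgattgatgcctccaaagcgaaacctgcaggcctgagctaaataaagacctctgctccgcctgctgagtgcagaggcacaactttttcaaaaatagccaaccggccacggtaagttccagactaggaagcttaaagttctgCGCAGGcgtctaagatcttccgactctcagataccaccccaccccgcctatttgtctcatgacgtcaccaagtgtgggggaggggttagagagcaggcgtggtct

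The window of the upstream *Cdkn1a* start held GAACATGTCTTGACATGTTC, a match to the p53 consensus with 1 mismatch, which begins 51 bases before the start. The window of its downstream start, not printed here, held none of the motifs searched. Such a match was found in 0.0761% of all 32851 RefSeq promoter windows of this length. The p19Arf window held an E2F site 98 bases and a CIRE 173 bases before its start, and the p16Ink4a window held none of these motifs. A CIRE was also found in the windows of *Mdm2* (122 bases before the start), *Cdkn2b* (CGCAGG, the reverse complement, at 105 bases) and *Atm* (at 151 bases), so that 4 of the 12 windows had a CIRE match, against 14.1% of all windows. E2F sites were in 6.69% of all windows. The AP-1 element, held by 4.46% of all windows, occurred once among the members, 134 bases before the downstream start of *Mdm4*. No matches shared bases with each other. A match of letters describes the sequence and does not show binding. Sites outside these windows, as within introns, were not searched, so a window without a match does not show that the gene lacks a site.

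Levels can be compared between genes only per length of exon. On the RPKM scale (CPM per kb of exon), *Cdkn1a* was the most abundant member in 5 of 6 libraries, with means of 51.3 RPKM in *Cd44*+/+ and 28.1 RPKM in *Cd44*-/- tumors. In No279 it stood at 13.1 RPKM, below *Cdkn2a* at 87.4 RPKM, *Cdkn2b* at 28.1 RPKM, *Mdm2* at 21.7 RPKM and *Mybbp1a* at 17.3 RPKM. *Atm* was the least abundant member in every library, at 0.122 to 0.865 RPKM. *Trp53* lay between 2.93 and 11.7 RPKM, *Rb1* between 3.05 and 6.67 RPKM, *Sesn2* between 1.89 and 5.75 RPKM and *Mdm4* between 0.948 and 2.94 RPKM. No279 was the highest library for 5 of 10 members, and No244 was the lowest for 4 and the highest for 0. Over all tested genes, No279 was the highest for 21.4%, and No244 was the lowest for 25.3% and the highest for 23.0%.

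**Figure D1:**
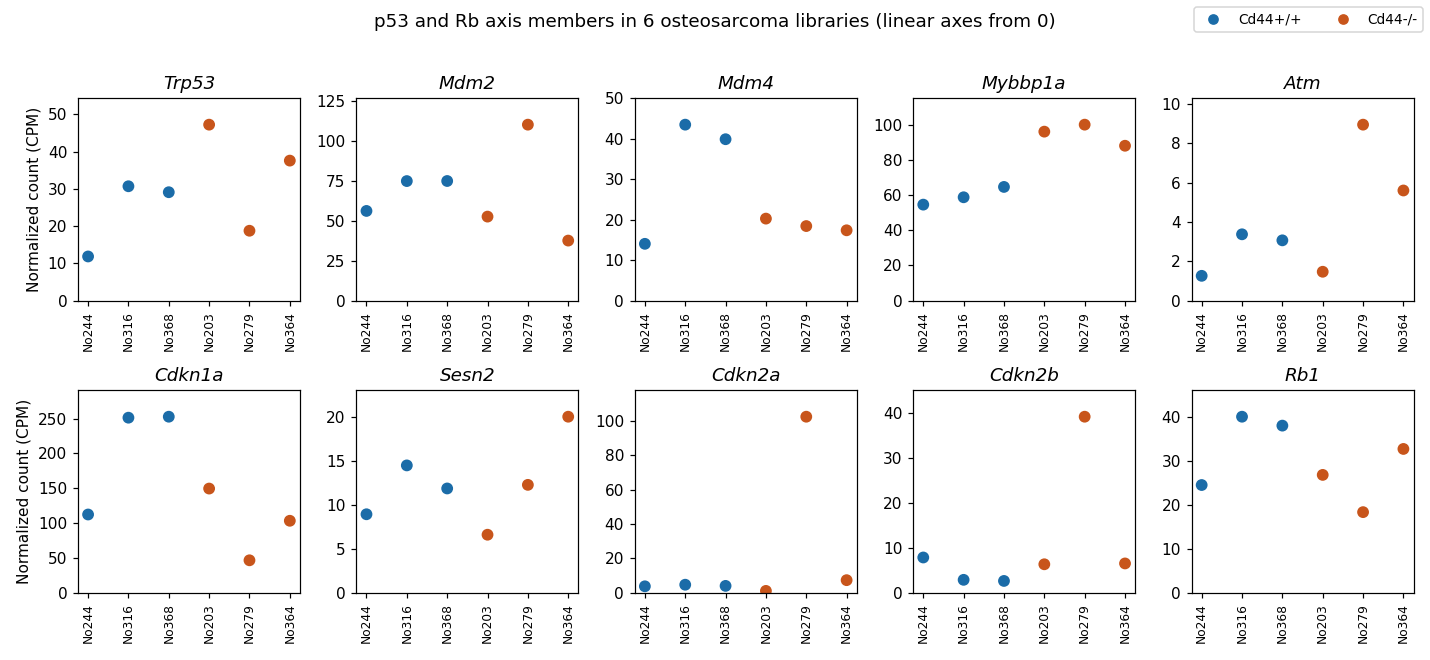
Normalized counts (CPM, linear axes from 0) of the 10 members in each of the 6 libraries, with *Cd44*+/+ in blue and *Cd44*-/- in orange and each point standing for 1 library. No279 stands far above the other libraries for *Cdkn2a* (102.4 CPM) and *Cdkn2b* (39.1 CPM), and *Mybbp1a* is the panel in which the genotypes do not overlap.

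*Trp53* (chr11:69580359-69591873, plus strand) encodes p53 itself. Its level was 11.8, 30.7 and 29.1 CPM in *Cd44*+/+ libraries and 47.2, 18.8 and 37.6 CPM in No203, No279 and No364. The lowest tumor was *Cd44*+/+ and the highest *Cd44*-/-, but No279 lay below the pair of *Cd44*+/+ libraries and the genotypes overlapped. The means were 20.9 ± 12.8 CPM (SD, n = 2) and 34.5 ± 14.5 CPM (SD, n = 3), and the log2 fold change of 0.70 (SE 0.66) did not pass the test (edgeR adjusted p = 0.855). Without No244 the log2 fold change was 0.15, without No279 it was 0.99, and without No316 and No368 it was 1.51. The processed pseudogene *Trp53-ps* has its own entry in the table and held at most 6 counts per library.

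*Mdm2* (chr10:117688875-117710758, minus strand), the ligase that marks p53 for degradation and itself a p53 target, was at 56.2, 74.9 and 74.98 CPM in the *Cd44*+/+ libraries No244, No316 and No368. In the *Cd44*-/- libraries it was at 52.7 CPM in No203, 110.3 CPM in No279 and 37.6 CPM in No364. The *Cd44*-/- tumors thus lay on both sides of the *Cd44*+/+ tumors. The means were 65.6 ± 13.3 CPM (SD, n = 2) and 66.9 ± 38.4 CPM (SD, n = 3), with a log2 fold change of 0.02 (SE 0.61, edgeR adjusted p = 0.999). Its sign changed with the normalization and with the libraries used, and without No279 it was -0.56.

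*Mdm4* (chr1:132959484-133030561, minus strand) encodes a relative of MDM2 that blocks p53 activity without a strong ligase function of its own. It was at 14.03 CPM in No244 but at 43.5 and 39.9 CPM in No316 and No368, and at 20.3, 18.4 and 17.4 CPM in No203, No279 and No364. The 3 *Cd44*-/- tumors were close to each other (18.7 ± 1.46 CPM, SD, n = 3), and the 2 *Cd44*+/+ samples lay on either side of them (27.9 ± 19.6 CPM, SD, n = 2). Its log2 fold change of -0.60 (SE 0.60) did not pass the test (edgeR adjusted p = 0.858), became -1.21 without No244 and turned to 0.37 without No316 and No368. A processed copy, *Mdm4-ps* on the X chromosome, has a separate entry with 85 to 467 counts per library, and reads that match both copies make the split between them uncertain. In No316 and No368, otherwise nearly proportional, *Mdm4-ps* had 467 and 118 counts.

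*Atm* (chr9:53439149-53536740, minus strand) encodes the kinase that phosphorylates p53 after double-strand breaks. It had 15, 97 and 73 counts in *Cd44*+/+ libraries and 37, 271 and 107 counts in No203, No279 and No364. On the normalized scale No279 was highest at 8.95 CPM (95% exact Poisson interval 7.91 to 10.1, counting error only), followed by No364 at 5.60 CPM (4.59 to 6.77). No203 at 1.47 CPM (1.03 to 2.02) and No244 at 1.26 CPM (0.705 to 2.08) could not be ordered at this depth. Between genotypes the log2 fold change was 1.21 (SE 1.04, edgeR adjusted p = 0.842), and it was -0.64 when No279 and No364 were both left out. *Npat*, a histone gene activator that starts 307 bp away on the opposite strand, was at 7.31, 11.8 and 10.2 CPM in *Cd44*+/+ libraries and at 8.96, 17.3 and 12.5 CPM in No203, No279 and No364, with the same 2 libraries highest and No244 lowest.

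*Mybbp1a* (chr11:72441355-72451768, plus strand) encodes a nucleolar protein that can bind p53 and promote its acetylation. Its level was 54.6, 58.8 and 64.7 CPM in *Cd44*+/+ libraries and 96.2, 100.1 and 88.1 CPM in No203, No279 and No364. Every *Cd44*-/- library was higher than every *Cd44*+/+ library, and the spread within a genotype was small (58.2 ± 5.04 CPM, SD, n = 2, against 94.8 ± 6.11 CPM, SD, n = 3). The log2 fold change was 0.70 (SE 0.45), which did not pass the test over all genes (edgeR adjusted p = 0.819). Genotypes that did not overlap were seen for 18.8% of all tested genes (9.58% higher in *Cd44*-/-) and for 1 of 10 members. The log2 fold change of *Mybbp1a* stayed between 0.58 and 0.81 under each of 19 alternatives, with a lowest adjusted p of 0.203 (DESeq2 on 6 libraries). With library size alone as the scaling, however, No364 fell to 62.5 CPM, below No316 at 77.2 CPM and No368 at 85.2 CPM, and the genotypes then overlapped. Exons at its 3′ end overlap *Spns2* on the opposite strand, and the strand setting of the counting is not given in the sources used here.

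**Figure D2:**
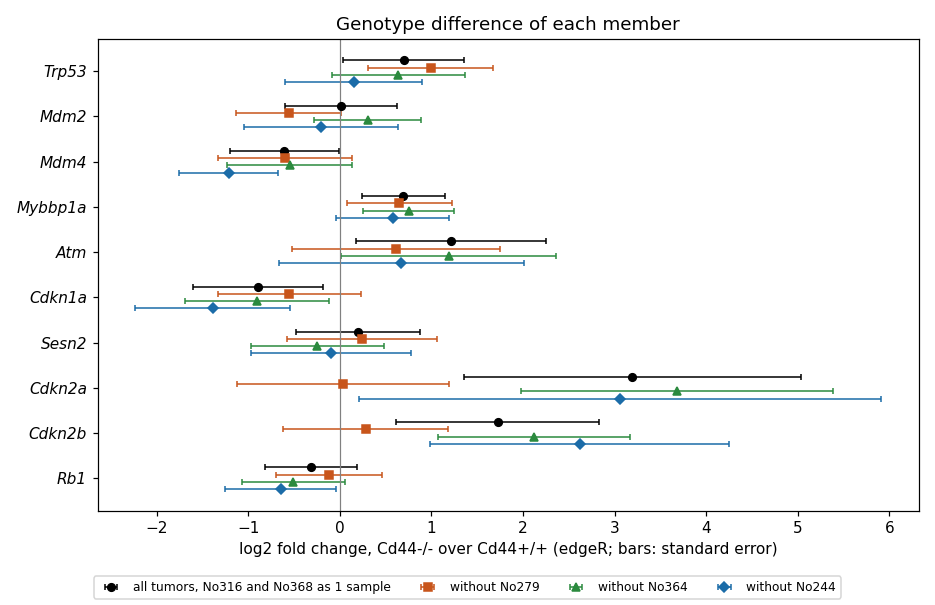
Log2 fold change of each member, *Cd44*-/- over *Cd44*+/+, from edgeR, with bars for the standard error, for all tumors and without No279, No364 or No244 in turn. *Mybbp1a* stays between 0.58 and 0.75 in the 4 fits, whereas *Cdkn2a* moves from 3.19 to 0.03 when No279 is left out.

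On the output side of p53, *Cdkn1a* (chr17:29090976-29100727, plus strand) encodes p21, the cyclin-dependent kinase inhibitor through which p53 arrests the cell cycle. It was at 112.3 CPM in No244, 251.3 CPM in No316 and 252.7 CPM in No368, and at 149.5, 46.5 and 103.3 CPM in No203, No279 and No364. The pair No316 and No368 was highest and No279 lowest, and No203 exceeded No244, so the genotypes overlapped. The means were 182.1 ± 98.8 CPM (SD, n = 2) and 99.8 ± 51.6 CPM (SD, n = 3), and the log2 fold change of -0.89 (SE 0.71) did not pass the test (edgeR adjusted p = 0.834). It was -1.39 without No244, -0.55 without No279 and -0.20 without No316 and No368. The sequence printed for its upstream start carries the match to the p53 consensus with 1 mismatch, and an exon of the gene overlaps *AC167363.2* on the opposite strand. *Sesn2* (chr4:132492032-132510501, minus strand), a stress-induced inhibitor of mTORC1 signaling, was at 8.91, 14.5 and 11.8 CPM in *Cd44*+/+ libraries and at 6.58, 12.2 and 19.99 CPM in No203, No279 and No364. Both the lowest and the highest value were from *Cd44*-/- tumors (log2 fold change 0.20, SE 0.68, edgeR adjusted p = 0.961), and the sign turned to -0.25 without No364.

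In a wider list of known p53 targets, *Btg2* and *Perp* had the largest positive log2 fold changes and *Phlda3* the largest negative one, and none of the 3 passed the test over all genes. Of 32 genes listed, 30 were expressed enough to be tested, 0 passed the adjusted threshold (background 0%) and 1 had an unadjusted p under 0.05. A log2 fold change above 0 was seen for 13 of 30, and the median was -0.15, against 0.12 over all tested genes. *Btg2*, an antiproliferative early response gene, was at 10.3, 10.98 and 12.6 CPM in *Cd44*+/+ libraries and at 30.5, 22.7 and 146.1 CPM in No203, No279 and No364 (log2 fold change 2.57, SE 0.97, edgeR adjusted p = 0.818). *Perp*, a p53 and p63 target found in epithelial junctions, was at 1.26, 0.209 and 0.168 CPM in the *Cd44*+/+ libraries and at 1.90, 2.21 and 100.01 CPM in No203, No279 and No364 (log2 fold change 5.65, SE 2.37, edgeR adjusted p = 0.818). Both genes were higher in every *Cd44*-/- library. The *Perp* values of No244 and No203 came from 15 and 48 counts, so the order of these libraries is uncertain at this depth. Both genes were highest in No364, the library with the hepatocyte markers. That library also held 1967 CPM over 4 epithelial markers, against 2.61 to 3.11 CPM in the *Cd44*+/+ and 5.27 to 36.3 CPM in the other *Cd44*-/- libraries, with no epithelial marker at 0. The sum of No364 was mainly *Krt8* (963.2 CPM) and *Krt18* (958.6 CPM), and that of No279 mainly *Krt18* (28.5 CPM). *Cdh1* overlapped between genotypes, at 0.924, 2.26 and 2.27 CPM in *Cd44*+/+ and at 0.674, 1.02 and 37.9 CPM in *Cd44*-/- libraries. The part of epithelial transcripts in the *Perp* and *Btg2* values was not tested. In bulk samples, a change in the share of a cell type and a change within cells cannot be told apart.

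In the opposite direction, *Phlda3*, an inhibitor of AKT, was at 249.1, 210.1 and 207.3 CPM in *Cd44*+/+ libraries and at 146.2, 49.4 and 20.6 CPM in No203, No279 and No364 (log2 fold change -1.67, SE 0.87, edgeR adjusted p = 0.818). *Sesn1*, the paralog of *Sesn2*, was at 55.0, 41.2 and 40.7 CPM in *Cd44*+/+ and at 18.9, 29.9 and 31.5 CPM in *Cd44*-/- libraries (log2 fold change -0.85, SE 0.45, edgeR adjusted p = 0.818). Both were lower in every *Cd44*-/- library. Non-overlapping genotypes were counted for 2 higher and 4 lower genes of 30, beside 18.8% of all tested genes. No364 was the highest library for 11 and No244 for 9 of the 30 targets. Over all genes they were the highest for 25.6% and 23.0%.

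Genes that act on p53 were followed in a list of 26 regulators and relatives, of which 25 were tested. None passed the adjusted threshold in edgeR (background 0%), 0 had an unadjusted p under 0.05, 12 of 25 had a log2 fold change above 0, and the median was -0.06. Genotypes did not overlap for 5 higher and 2 lower genes of 25, beside 18.8% of all tested genes. *Npm1*, a nucleolar chaperone that stabilizes p19Arf, was at 178.0, 220.5 and 208.7 CPM in *Cd44*+/+ libraries and at 660.0, 403.6 and 481.4 CPM in No203, No279 and No364. It was higher in every *Cd44*-/- library (log2 fold change 1.38, SE 0.68, edgeR adjusted p = 0.818). With DESeq2 on 6 libraries it was the only gene of the 4 lists to pass (log2 fold change 1.33, adjusted p = 0.0209), where 2.51% of all genes passed. *Npm1* has near-identical processed copies in the mouse genome, so its share of the reads is uncertain. *Trp63*, encoding the p53 relative p63, was at 3.36, 20.7 and 21.3 CPM in *Cd44*+/+ and at 3.01, 2.48 and 0.209 CPM in *Cd44*-/- libraries, lower in each of the latter (log2 fold change -2.70, SE 1.27, edgeR adjusted p = 0.818). These were 40 counts in No244, 76 in No203 and 75 in No279, so the order of these libraries is uncertain at this depth. The other relative, *Trp73*, had at most 1 count in any library and was not tested. *Brca1*, of homologous repair, and *Trp53bp2*, which directs p53 toward apoptosis genes, had log2 fold changes of 0.94 (SE 0.71, edgeR adjusted p = 0.832) and 0.77 (SE 0.63, edgeR adjusted p = 0.834).

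*Cdkn2a* (chr4:89274471-89294653, minus strand) encodes both p16Ink4a and p19Arf from the starts shown above, and gene counts add the transcripts of both. It had 44, 133 and 94 counts in *Cd44*+/+ libraries and 26, 3103 and 139 counts in No203, No279 and No364. Normalized, this was 3.70, 4.62 and 3.95 CPM in *Cd44*+/+ libraries and 1.03, 102.4 and 7.27 CPM in *Cd44*-/- libraries. No279 was 14.1-fold above the next library, No364, and No203 was lowest (95% exact Poisson interval 0.673 to 1.51 CPM), below the interval of No244 (2.69 to 4.96 CPM). The *Cd44*-/- tumors therefore held both extremes, with a mean of 36.9 ± 56.8 CPM (SD, n = 3) against 3.99 ± 0.415 CPM (SD, n = 2). The log2 fold change of 3.19 (SE 1.84) did not pass the test (edgeR adjusted p = 0.818), was 0.03 without No279 and turned to -1.96 without No279 and No364. Without No203 it was 3.70 (edgeR adjusted p = 0.494).

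*Cdkn2b* (chr4:89306299-89311039, minus strand), 11646 bp from *Cdkn2a*, encodes p15Ink4b. It was at 7.81, 2.85 and 2.60 CPM in *Cd44*+/+ libraries and at 6.30, 39.1 and 6.49 CPM in No203, No279 and No364. No279 was again highest, 5.002-fold above the next library, but the low *Cdkn2a* level of No203 was not matched by a low *Cdkn2b* level. The means were 5.27 ± 3.60 CPM (SD, n = 2) and 17.3 ± 18.9 CPM (SD, n = 3), and the log2 fold change of 1.72 (SE 1.10, edgeR adjusted p = 0.818) was 0.28 without No279. *Mtap*, the neighbor on the other side of *Cdkn2a* at 93390 bp, encodes a methionine salvage enzyme and is often co-deleted with it in tumors. It was at 16.9, 33.5 and 35.8 CPM in *Cd44*+/+ and at 9.87, 72.4 and 28.3 CPM in No203, No279 and No364. *Mtap* thus had the same highest and the same lowest library as *Cdkn2a*, over a narrower range. *Dmrta1*, the next protein-coding gene beyond *Cdkn2b* at 368397 bp, was highest in No364 with 11 counts, against 8 in No279, and was not tested. In No279, 6 of 7 osteoblast markers were lower than in No244, No316, No368 and No203, none of them at 0. The 4 chondrocyte markers summed to 171 CPM in No279, against 9.66 to 40.6 CPM in the other libraries, but this sum was mainly *Acan* at 152.9 CPM, with *Sox9* at 17.7 CPM, *Col2a1* at 0.627 CPM and *Col9a1* at 0. The part of this marker pattern in the *Cdkn2a* and *Cdkn2b* values was not tested.

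The neighborhood of *Mdm2* also had its highest values in No279. *Slc35e3*, 22921 bp away, was at 15.9, 20.5 and 20.8 CPM in *Cd44*+/+ libraries and at 29.4, 52.2 and 19.6 CPM in No203, No279 and No364. *Cpm*, a carboxypeptidase gene 1523 bp from *Mdm2*, was at 0.252, 0.278 and 0.294 CPM in *Cd44*+/+ libraries and at 0.198, 12.1 and 5.55 CPM in No203, No279 and No364, and so was raised in No364 as well, where *Mdm2* was lowest. These 2 neighbors were chosen after their values were seen. DNA copy number was not measured.

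**Figure D3:**
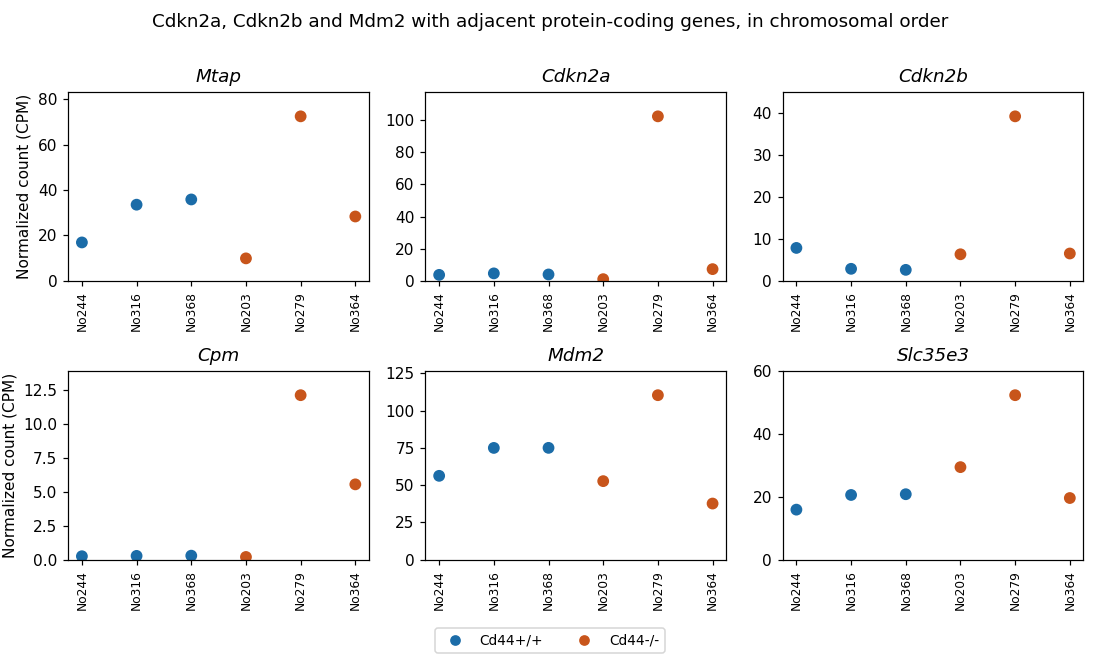
Normalized counts (CPM, linear axes from 0) of *Cdkn2a* and *Cdkn2b* with *Mtap*, and of *Mdm2* with *Cpm* and *Slc35e3*, in chromosomal order, with each point standing for 1 library. In all 6 panels the highest point is No279, from 12.1 CPM for *Cpm* to 110.3 CPM for *Mdm2*. *Dmrta1*, the neighbor beyond *Cdkn2b*, is not drawn and was highest in No364.

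*Rb1* (chr14:73183673-73325822, minus strand) showed the narrowest range after *Mybbp1a*, 2.19-fold. It was at 24.5, 40.1 and 38.1 CPM in *Cd44*+/+ libraries and at 26.8, 18.4 and 32.8 CPM in No203, No279 and No364. No279, the tumor with the highest *Cdkn2a*, had the lowest *Rb1*, but No244 lay within the *Cd44*-/- range and the genotypes overlapped. The means were 31.8 ± 10.3 CPM (SD, n = 2) and 26.0 ± 7.24 CPM (SD, n = 3), with a log2 fold change of -0.31 (SE 0.50, edgeR adjusted p = 0.911). Exons of *Lpar6* and *Rcbtb2* overlap *Rb1* on the opposite strand. *Lpar6*, a receptor gene nested within *Rb1*, was highest in No364 (46.5 CPM) and lowest in No279 (12.4 CPM).

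Of 24 further genes of the Rb arm, all 24 were tested, 0 passed the adjusted threshold in edgeR (background 0%) and 0 had an unadjusted p under 0.05. Values above 0 were seen for 14 of 24, with a median log2 fold change of 0.13. *Ccnd3*, a D-type cyclin that activates CDK4 and CDK6, was at 242.6, 116.9 and 122.3 CPM in *Cd44*+/+ and at 100.6, 58.4 and 39.3 CPM in *Cd44*-/- libraries (log2 fold change -1.45, SE 0.63, edgeR adjusted p = 0.818). *Ccnd1*, its better known relative, was at 292.4, 345.0 and 344.0 CPM against 246.6, 188.4 and 110.005 CPM (log2 fold change -0.82, SE 0.63, edgeR adjusted p = 0.834). Both were lower in every *Cd44*-/- library, but the other D-type cyclin gene, *Ccnd2*, was at 9.92, 17.4 and 18.8 CPM against 10.03, 38.1 and 8.37 CPM, with overlapping genotypes and a log2 fold change of 0.42 (SE 0.84, edgeR adjusted p = 0.932). *Ccnd2* was named after its values were seen. *Cdkn2c*, encoding the inhibitor p18Ink4c, was higher in every *Cd44*-/- library, at 21.2, 50.7 and 21.5 CPM against 6.97, 17.1 and 16.2 CPM (log2 fold change 1.37, SE 0.71, edgeR adjusted p = 0.818). *Tfdp1*, the dimerization partner of E2F, and *Ccne1*, the cyclin of CDK2, had log2 fold changes of 1.53 (SE 0.84, edgeR adjusted p = 0.818) and 1.45 (SE 0.90, edgeR adjusted p = 0.818). *Cdk4* and *E2f1* differed by log2 fold changes of 0.31 (SE 0.63, edgeR adjusted p = 0.933) and 0.15 (SE 0.67, edgeR adjusted p = 0.971). Non-overlapping genotypes were counted for 3 higher and 4 lower genes of 24, beside 18.8% of all tested genes.

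E2F targets, the replication and mitosis genes that Rb represses, had mostly positive log2 fold changes, *Cd44*-/- over *Cd44*+/+, without any gene passing the test. Of 24 genes, all tested, 23 had a log2 fold change above 0 and the median was 0.76, beside 0.12 and 9904 of 17844 above 0 over all genes. None passed the adjusted threshold in edgeR (background 0%), 0 had an unadjusted p under 0.05, and 0 of 24 had non-overlapping genotypes, beside 18.8% of all tested genes. *Mcm6*, a subunit of the replicative helicase, was at 22.2, 33.8 and 35.4 CPM in *Cd44*+/+ and at 111.9, 89.96 and 31.2 CPM in No203, No279 and No364 (log2 fold change 1.44, SE 0.69, edgeR adjusted p = 0.818). *Mcm5*, another helicase subunit, and *Top2a*, encoding the topoisomerase that doxorubicin targets, had log2 fold changes of 1.47 (SE 0.74) and 1.19 (SE 0.76), both with an edgeR adjusted p of 0.818. The proliferation marker *Mki67* was at 94.1, 107.1 and 103.4 CPM in *Cd44*+/+ and at 205.4, 103.8 and 43.2 CPM in *Cd44*-/- libraries, with 0.23 (SE 0.74, edgeR adjusted p = 0.960).

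Each genotype held a library with low values of this list. Centred on the mean of each gene, the median log2 CPM of the E2F targets was 0.99 in No203, 0.70 in No279, 0.25 in No316 and 0.17 in No368, but -0.73 in No364 and -1.16 in No244. No244 was the lowest library for 18 of 24 genes and No203 the highest for 14. Over all tested genes, these shares were 25.3% and 14.1%. Without No244 the median log2 fold change of the list was 0.27, near the 0.24 of all genes in that fit, without No203 it was 0.39 beside 0.07 for all genes, without No364 it was 1.03, and without No316 and No368 it was 1.75 beside 0.29 for all genes. No244 is the library with most mitochondrial and muscle transcripts and No364 the library with most hepatocyte transcripts, as given above. With the hepatocyte markers as covariate in edgeR, the median of the list was 1.11 beside 0.05 for all genes. In that fit 4 of 24 genes had an unadjusted p under 0.05, beside 731 of 17844 genes. The part of these transcripts in the low values of the list was not tested otherwise. The 3 other lists had medians per library between -0.40 and 0.36.

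**Figure D4:**
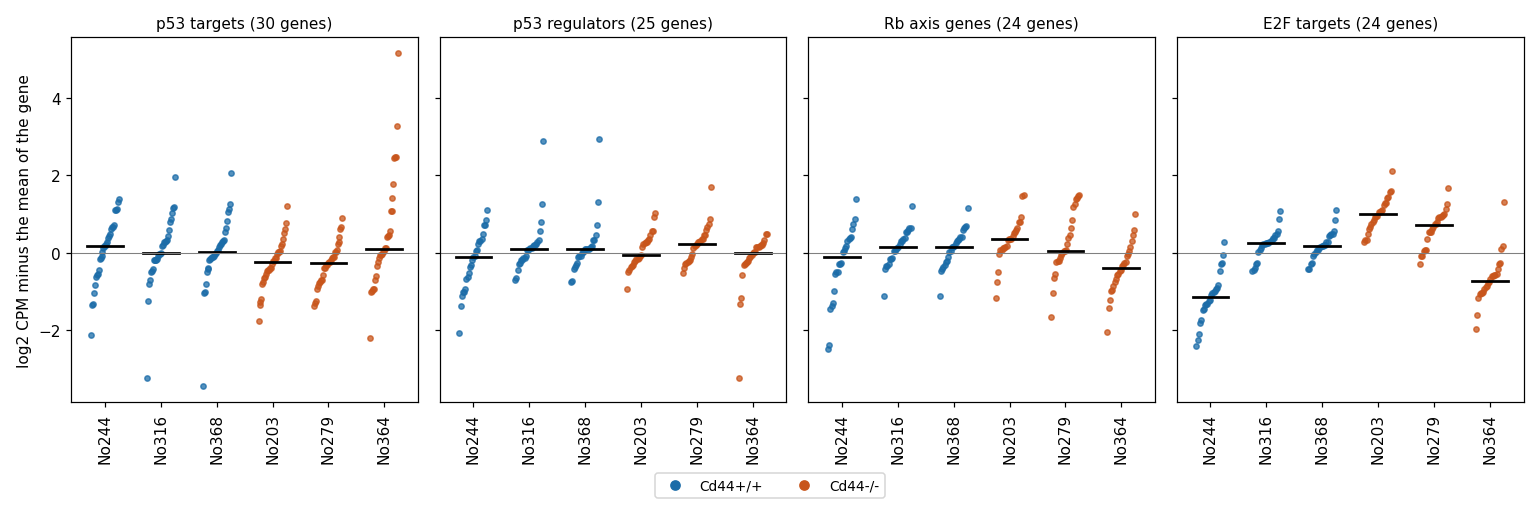
Log2 CPM of each tested gene minus the mean of that gene over the samples (No316 and No368 as 1), for the 4 lists in each library, with black lines at the median and each point standing for 1 gene. The E2F targets run from a median of -1.16 in No244 to 0.99 in No203, while the medians of the other 3 lists stay between -0.40 and 0.36.

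The count of members with non-overlapping genotypes depended on single libraries. Without No244 it rose from 1 to 5, with *Cdkn2b* and *Mybbp1a* higher and *Mdm4*, *Cdkn1a* and *Rb1* lower in *Cd44*-/-, while 38.9% of all genes then did not overlap. Without No203 it was 4 (*Cdkn2a*, *Atm* and *Mybbp1a* higher, *Cdkn1a* lower) against 37.7% of all genes, and without No279 it was 3 (*Trp53* and *Mybbp1a* higher, *Mdm2* lower) against 29.1%. *Mybbp1a* was the member counted in each of these sets, all scaled by TMM. With library size alone and all 6 libraries, the count stayed at 1, but the member was *Cdkn2b*, higher in *Cd44*-/-. In that scaling 2264 of 17844 genes did not overlap.

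For each member, the genes with the most similar profile were found by the root mean square difference of centred log2 CPM over 5 samples, among 17843 other tested genes. For *Mybbp1a* these were *Coa5* (0.0605), *Atp5g2* (0.0621) and *Eloc* (0.0721), beside its own SD of 0.396. For *Trp53*, with an SD of 0.805, *Jagn1* differed by 0.102 and came second after the predicted gene *Gm13493* (0.0868). For *Cdkn2a*, with an SD of 2.42, the nearest genes were *Rbpjl* (0.257), *Plxdc1* (0.378) and *Lypd6* (0.391), and for *Cdkn2b*, with an SD of 1.38, *Mcemp1* (0.164), *Podn* (0.322) and *Ntn1* (0.328). *Mdm2* was nearest to *B4galt1* (0.0827), *Mdm4* to *Fam76b* (0.109), *Sesn2* to *Kdsr* (0.0569), *Rb1* to *Cntrl* (0.0969) and *Cdkn1a*, after the microRNA gene *Mir6970* (0.163), to *Mylk* (0.167). *Atm* was nearest to *Tpd52-ps* (0.0743). No member was among the 3 nearest genes of another. With 5 samples and this many genes, close matches describe these libraries only.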

How the data were processed

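RNA of 6 mouse osteosarcoma libraries was analysed from raw read counts per Ensembl gene, which the authors deposited without normalization. By the methods of the study and the submitters' processing notes, stranded mRNA libraries were read from one end, demultiplexed with bcl2fastq 1.8.4, aligned to GRCm38 with HISAT2 2.0.2 and counted with featureCounts (Subread 2.0.0). Strand and multimapping settings are not given in the sources used here, so counts of overlapping or copied genes are uncertain. Symbols and coordinates came from GENCODE M21 (37607 of 39179 identifiers matched), and all 10 members and every list gene were found.

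The 10 members and the gene lists were chosen with earlier results of these data known. Genotypes were compared by the quasi-likelihood F test of edgeR 4.0.16 (R 4.3.3) after filterByExpr and TMM scaling, with No316 and No368 summed as 1 sample (2 against 3), genotype as the only term, and a Benjamini-Hochberg threshold of 0.05 over all 17844 tested genes. The SE is the log2 fold change over the square root of F. An exact permutation test of 2 against 3 cannot go below p = 0.1 and was not used. Per-library values are TMM-scaled CPM, and RPKM divides them by the exon length in kb. Alternatives were other scalings and filters, removal of mitochondrial genes, 6 separate libraries, DESeq2 1.42.0, voom of limma 3.58.1, a covariate of hepatocyte markers and leaving out each library. Leaving out pairs of libraries, DESeq2 on 6 libraries and the overlap count with the pair summed were added after the data were seen. Fits were tested on simulated data. Besides the members, the text names the 4 genes of each list with the smallest p, *Perp*, *Trp63*, *Trp73*, *Cdk4*, *Ccnd1*, *E2f1*, *Mki67*, *Cd44*, neighbors of members and the 3 genes nearest in profile. Values of *Nf2* and of 1 gene that this rule would name are not reported here. Library depth lies in the range given above, and intervals cover counting error only, since reads carried no molecular identifiers.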

Additional observations from a re-analysis of the deposited data

How the results depend on the processing

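Over 19 alternatives, 0 of 10 members passed an adjusted p of 0.05, and *Trp53*, *Cdkn1a*, *Cdkn2b* and *Mybbp1a* kept their direction in all 19. *Mdm2* reversed to -0.0071 (size factors of DESeq2 in edgeR, and DESeq2), -0.039 (6 libraries in edgeR), -0.060 (6 libraries in DESeq2), -0.12 (limma-voom), -0.21 (without No244), -0.56 (without No279) and -0.32 (without No279 and No364). *Sesn2* reversed to -0.062 (limma-voom), -0.22 (hepatocyte covariate), -0.10 (without No244), -0.25 (without No364), -0.76 (without No279 and No364) and -0.58 (without No244 and No364). Without No279 and No364, *Cdkn2a* was at -1.96 and *Atm* at -0.64, and without No316 and No368, *Mdm4* was at 0.37 and *Rb1* at 0.040. Leaving out each library in turn gave -0.56 to 0.31 for *Mdm2* and -0.25 to 0.48 for *Sesn2*. The causes were not tested. DESeq2 called 109 genes (0.611%) and, on 6 libraries, 423 genes (2.51%), where *Cd44* passed (log2 fold change -2.69, adjusted p = 0.00877) and 1 gene of the p53 regulator list, *Npm1*, was called. Members with an unadjusted p under 0.05 numbered 1 in DESeq2 (*Cdkn2a*, 8.89% of all genes) and 3 on 6 libraries (*Cdkn2a*, *Cdkn2b* and *Mybbp1a*, 14.1% of all genes). In edgeR without No203 there was 1, *Cdkn2a* (unadjusted p = 0.0291), where 1720 of 17422 genes had such a p. Members with non-overlapping genotypes numbered from 1 to 5 when each library was left out, and without No244, which gave 5, 38.9% of all genes did not overlap. Genes with an unadjusted p under 0.05 numbered 761 (324 higher and 437 lower in *Cd44*-/-), but 859 with library size alone (637 and 222), 632 with limma-voom (145 and 487), 1810 on 6 libraries (1085 and 725), 1586 with DESeq2 (863 and 723), 2375 with DESeq2 on 6 libraries (1279 and 1096), 739 without No279 (501 and 238), and between 260 (without No244) and 1720 (without No203) when each library was left out. Library size alone moved the median log2 fold change of all genes from 0.12 to 0.25. Leaving a genotype with 1 sample assumes that this sample varies like the others. No paired analysis was possible because the genotypes share no replicate numbers. Counts of 15 to 44 for *Atm* and *Cdkn2a* in the lowest libraries limit what can be ordered there.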
